A study of Saccharomyces cerevisiae with 12 samples.

Results

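Ribosome footprints, the short RNA pieces that translating ribosomes shield from nuclease, were counted gene by gene in a yeast strain that carries a variant of the RNA helicase Ded1. The comparison set 2 libraries of cells held at 42 °C against 2 libraries of the same strain held at 30 °C, which is 4 of the 12 libraries of the study. All 4 came from Saccharomyces cerevisiae W303 Ade+ with the genotype Ded1_IDRm-mCherry, called IDRm here. Both groups therefore carry the variant and the red fluorescent tag mCherry, and the only labelled difference between them is the temperature of the last 10 min. The labels do not spell out what the IDRm variant changes. The duplicates were grown as separate pre-cultures at 30 °C, and each main culture was divided over the temperatures. The other 8 libraries were IDRm at 40 °C and a WT strain, W303 Ade+ with Ded1-mCherry, at 30, 40 and 42 °C, again with 2 libraries per group. The comparison covers every gene that passed a filter on low counts, which was 5719 of the 6697 genes in the count table. The 978 genes left out held at most 0.0383% of the counts of any of the 4 libraries. The filter depends on how many libraries reach its minimum, so the smallest total over the 12 libraries of a gene that passed was 40 counts and the largest of a gene that did not was 92.

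Heat unfolds proteins, and yeast answers within minutes. The heat shock factor Hsf1 switches on chaperone genes, and the paired factors Msn2 and Msn4 switch on a wider set of stress genes. At the same time genes for making ribosomes are switched off. Ded1 is a DEAD-box helicase that helps the small ribosomal subunit to scan structured leaders of messenger RNA, and in heated cells Ded1 and the poly(A)-binding protein Pab1 are known to gather into condensates. Footprint counts follow both the amount of a messenger RNA and how often it is translated, and without matched RNA sequencing these cannot be told apart.

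The 4 libraries held 4084186 to 5717879 counts, and all 12 held 3429950 to 7851819. Levels are given in CPM, counts scaled to a common library size. Replicate libraries had a Pearson correlation of log2 CPM of 0.9942 at 30 °C and 0.9928 at 42 °C in IDRm, and no pair of replicates agreed within sampling noise, with chi-square values per degree of freedom of 1.40 to 4.94. No spike-in is named in the labels, so a level says how a library was divided among its genes and not how much RNA a cell held. DED1 (YOR204W, chromosome XV, 722911 to 724725 in R64), which carries the variant and the tag, had 1436 and 1426 CPM at 30 °C and 1272 and 1331 CPM at 42 °C. Its change of −0.14 ± 0.07 on the log2 scale missed the threshold (adjusted p = 0.0686) but passed it under 5 of the 10 other settings, with changes of −0.12 to −0.18. These counts cannot tell the alleles apart. Markers of a cells were present, such as STE2, the receptor for alpha factor, with 251 and 217 CPM at 30 °C and 148 and 159 CPM at 42 °C. The 7 markers of a cells did not move together, with 4 lower, 2 higher and log2 changes from −0.77 to 3.71. They took a mean of 0.0833% of the counts at 30 °C and 0.0626% at 42 °C. The 4 markers of alpha cells took a mean of 0.00092% of the counts at 30 °C and 0.0024% at 42 °C, and the 12 meiosis markers 0.00344% and 0.00961%. In bulk libraries fewer cells of a type and less RNA per cell cannot be told apart.

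Upstream sequences are shown first for the heat-induced and heat-repressed genes that carry known regulatory letters. For each gene, the 300 bases that end 100 bases before the start codon were read from R64 and searched on both strands. The heat shock element, bound by Hsf1, was written as TTCNNGAANNTTC or GAANNTTCNNGAA, and the stress response element, bound by Msn2 and Msn4, as AGGGG. The PAC and RRPE motifs, found upstream of many ribosome biogenesis genes, were written as GATGAG and AAAATTTT. Among the 12 genes with the highest change, 3 had a heat shock element in this window, and they are printed with heat shock and stress response elements in capitals. BTN2 and HSP42 encode aggregate-sorting chaperones and HSP78 a mitochondrial disaggregase.
BTN2 (R64, chrVII:772054-772353, plus strand): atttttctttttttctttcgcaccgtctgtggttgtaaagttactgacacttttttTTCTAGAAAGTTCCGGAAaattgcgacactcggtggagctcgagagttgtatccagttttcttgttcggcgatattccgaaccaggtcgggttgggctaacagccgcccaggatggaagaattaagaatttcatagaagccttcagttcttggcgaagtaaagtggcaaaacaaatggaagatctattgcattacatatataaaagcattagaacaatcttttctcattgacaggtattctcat
HSP42 (R64, chrIV:806221-806520, plus strand): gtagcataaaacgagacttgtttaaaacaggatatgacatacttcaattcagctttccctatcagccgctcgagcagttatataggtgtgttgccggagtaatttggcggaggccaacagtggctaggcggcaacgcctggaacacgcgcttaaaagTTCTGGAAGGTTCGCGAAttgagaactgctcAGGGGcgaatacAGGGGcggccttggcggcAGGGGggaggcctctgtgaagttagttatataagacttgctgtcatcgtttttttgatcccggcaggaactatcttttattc
HSP78 (R64, chrIV:974344-974643, minus strand): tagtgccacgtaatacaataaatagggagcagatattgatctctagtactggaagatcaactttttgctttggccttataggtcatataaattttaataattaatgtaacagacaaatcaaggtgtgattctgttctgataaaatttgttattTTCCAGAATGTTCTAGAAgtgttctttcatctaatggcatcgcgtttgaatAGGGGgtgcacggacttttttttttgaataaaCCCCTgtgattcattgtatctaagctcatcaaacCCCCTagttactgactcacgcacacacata
Among the 12 genes with the lowest change, the pair that held both PAC and RRPE is printed with those motifs in capitals. ALB1 and NSR1 encode proteins of ribosome assembly.
ALB1 (R64, chrX:189316-189615, plus strand): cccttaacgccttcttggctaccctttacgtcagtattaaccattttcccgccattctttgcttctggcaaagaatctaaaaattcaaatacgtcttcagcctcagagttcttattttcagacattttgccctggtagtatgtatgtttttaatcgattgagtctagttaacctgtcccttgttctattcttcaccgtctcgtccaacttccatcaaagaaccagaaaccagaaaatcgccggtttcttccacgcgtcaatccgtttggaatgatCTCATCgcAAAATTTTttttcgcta
NSR1 (R64, chrVII:807757-808056, minus strand): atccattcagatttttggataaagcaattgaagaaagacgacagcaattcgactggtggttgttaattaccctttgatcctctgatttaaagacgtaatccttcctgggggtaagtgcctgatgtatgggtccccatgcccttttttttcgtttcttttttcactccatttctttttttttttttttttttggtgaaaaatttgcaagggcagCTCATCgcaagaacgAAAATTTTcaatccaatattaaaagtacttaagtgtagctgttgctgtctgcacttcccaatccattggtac
In each of the first 3 windows the heat shock element matched as 2 overlapping forms, and no match of one motif overlapped a match of another in the 5 windows. The HSP78 window also held 1 match of PAC, left in lower case. PAC stood in 3 of the 12 highest and 5 of the 12 lowest genes. Windows were not trimmed at neighbouring genes, and a match is only a match of letters.

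Over all 5566 tested genes with a window, 1.13% held a heat shock element and 23.9% a stress response element. Of the 947 that were at least 2-fold higher at 42 °C, 3.06% and 39.7% held them, and of the 204 that were at least 8-fold higher, 6.86% and 49%. PAC stood in 18.3% of all windows and RRPE in 9.5%, and in 16.8% and 4.86% of the 947 higher genes. Of the 894 genes at least 2-fold lower, 24.7% and 20.8% held them, and of the 218 at least 4-fold lower, 28% and 29.4%. Among 62 genes for assembly of the 40S subunit, 64.5% held PAC and 71% RRPE, and among 38 general stress genes 92.1% held a stress response element. No test was run on these shares.

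Heat at 42 °C remade the footprint profile of the IDRm strain in both directions. Of the gene lists, sequestrases with the disaggregase and general stress genes had the highest medians, and purine synthesis and ribosome assembly the lowest. The quasi-likelihood test of edgeR called 2104 genes higher (36.8%) and 2098 genes lower (36.7%) after heat, at an adjusted p of at most 0.05 over the 5719 tested. A change of at least 2-fold was found in 1032 higher genes (18%) and 900 lower genes (15.7%). With 73.5% of all genes called, a call alone says little, so each change below is a size on the log2 scale with an approximate standard error, from 2 libraries against 2. The lists were chosen with earlier results of these data known, so their counts describe the lists and are not tests of them. Counts of higher and lower genes in the lists below are to be read beside 36.8% and 36.7%. Some lie near these shares, such as those of the proteasome, ergosterol and cell wall lists. Of the 4202 called genes, 4201 moved the same way within both replicate numbers. The same libraries gave the calls, so that count is no separate support for them. The median change of all genes was 0.02. Genes under a mean of 20 CPM and those without a standard name were left out of the ranking. In it BTN2 had the highest change and IMD4, an IMP dehydrogenase of guanine nucleotide synthesis, the lowest. Over all tested genes the changes ran from −4.71 to 8.02.

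**Figure D1:**
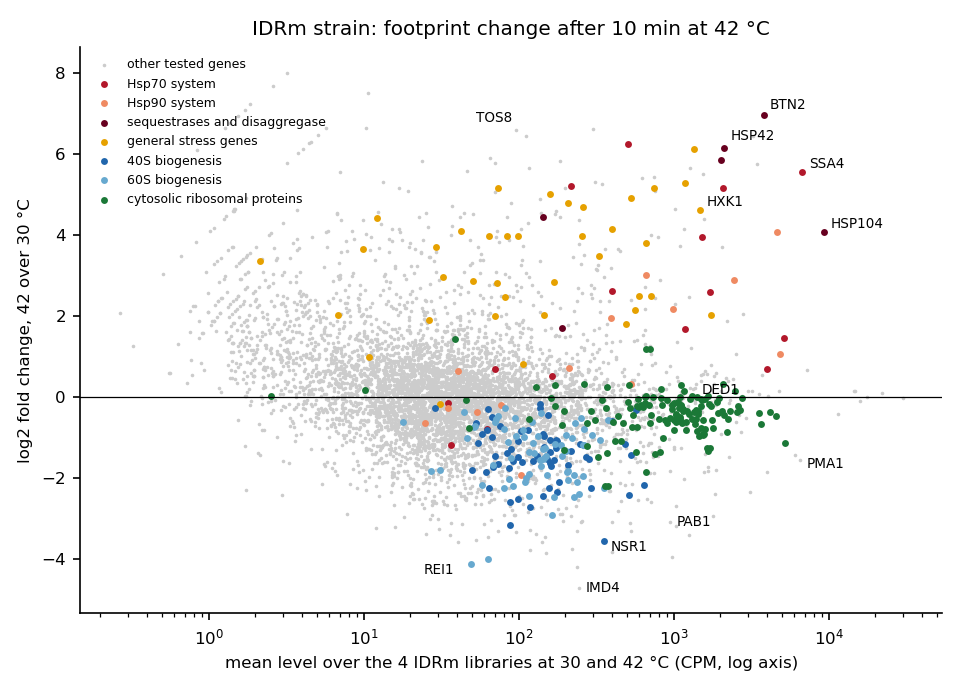
Change of every tested gene in the IDRm strain (log2 fold change, 42 over 30 °C) against its mean level over the 4 libraries (CPM, log axis), with 7 gene groups in colour. Chaperones and general stress genes lie mostly above 0, ribosome assembly genes below it, and ribosomal protein genes in a band just below 0 with a median of −0.37.

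Proteins that sort and dissolve aggregates had the highest median of the lists. BTN2, which collects misfolded proteins for clearance, had 49.3 and 70.3 CPM at 30 °C and 7587 and 7497 CPM at 42 °C. HSP42, a small heat shock protein that coats unfolding proteins, had 46.5 and 69.7 CPM at 30 °C and 4070 and 4291 CPM at 42 °C. HSP26, another of this kind, had 55.0 and 79.2 CPM at 30 °C and 4099 and 3773 CPM at 42 °C. HSP104 (YLL026W, chromosome XII, 88623 to 91349), the disaggregase that pulls proteins out of aggregates, had 903 and 1166 CPM at 30 °C and 17410 and 17646 CPM at 42 °C. Neither of the 2 heated libraries came near a control library in any of these genes. The changes were 6.97 ± 0.82 for BTN2 (adjusted p = 0.000242), 6.16 ± 0.57 for HSP42, 5.87 ± 0.59 for HSP26 and 4.08 ± 0.22 for HSP104 (adjusted p = 2.2e-06). The standard errors rest on 1 spread per gene over all groups, and the WT libraries at 30 °C stood apart from each other in some of these genes, as in HSP26 with 27.7 and 115 CPM. All 6 genes of this group rose, with a median of 5.16, and their summed share of a library went from 0.119% and 0.156% to 3.50% and 3.44%.

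Hsp70 chaperones, which bind exposed stretches of unfolded proteins, rose with most of their partners. SSA4, an inducible Hsp70, had 204 and 351 CPM at 30 °C and 13083 and 13400 CPM at 42 °C, a change of 5.57 ± 0.58 (adjusted p = 0.000123). SSA1, a second cytosolic Hsp70, changed by 2.60 ± 0.07, but shares 64.7% of its 28-base words, stretches about as long as a footprint, with other genes, so its counts are uncertain. APJ1, a J-domain partner of Hsp70, had 11.9 and 14.3 CPM at 30 °C and 995 and 1017 CPM at 42 °C, and FES1, which releases nucleotide from Hsp70, changed by 5.17 ± 0.19. Of 15 genes of the Hsp70 system, 12 rose and 2 fell, the J-domain genes XDJ1 and DJP1, with a median of 1.68 beside 0.02 for all genes. HSP82, an Hsp90 that matures kinases and receptors, had 446 and 588 CPM at 30 °C and 8827 and 8710 CPM at 42 °C, a change of 4.08 ± 0.19 (adjusted p = 3.22e-07). Its activator AHA1 and its partner STI1, which links Hsp70 to Hsp90, changed by 3.02 ± 0.08 and 2.90 ± 0.08. In the Hsp90 list 9 of 14 genes rose and 3 fell, with a median of 0.69.

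Chaperones elsewhere in the cell were split. HSP78, the mitochondrial relative of Hsp104, had 96.7 and 152 CPM at 30 °C and 6860 and 6651 CPM at 42 °C, a change of 5.76 ± 0.50. MDJ1 and HSP60, which fold proteins in the mitochondrial matrix, changed by 3.67 ± 0.13 and 1.88 ± 0.07, and the list had 6 higher and 2 lower of 11. In the endoplasmic reticulum 7 of 15 folding genes rose and 5 fell, with a median of 0.16. HAC1, the factor of the unfolded protein response, whose message is held untranslated by an intron until it is spliced, had 28.1 and 29.2 CPM at 30 °C and 1129 and 1302 CPM at 42 °C, a change of 5.41 ± 0.25 (adjusted p = 8.27e-07). KAR2, the Hsp70 of that compartment, changed by 2.06 ± 0.07 and ERO1, its disulfide-forming oxidase, by 2.39 ± 0.09. Chaperones that attend new proteins at the ribosome went the other way, with 14 of 21 lower, 3 higher and a median of −0.63. CCT5, a subunit of the TRiC chaperonin that folds actin and tubulin, fell by 2.48 ± 0.09, and SSB2, a ribosome-bound Hsp70, by 2.04 ± 0.07, with 60.9% of its 28-base words shared with other genes.

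**Figure D2:**
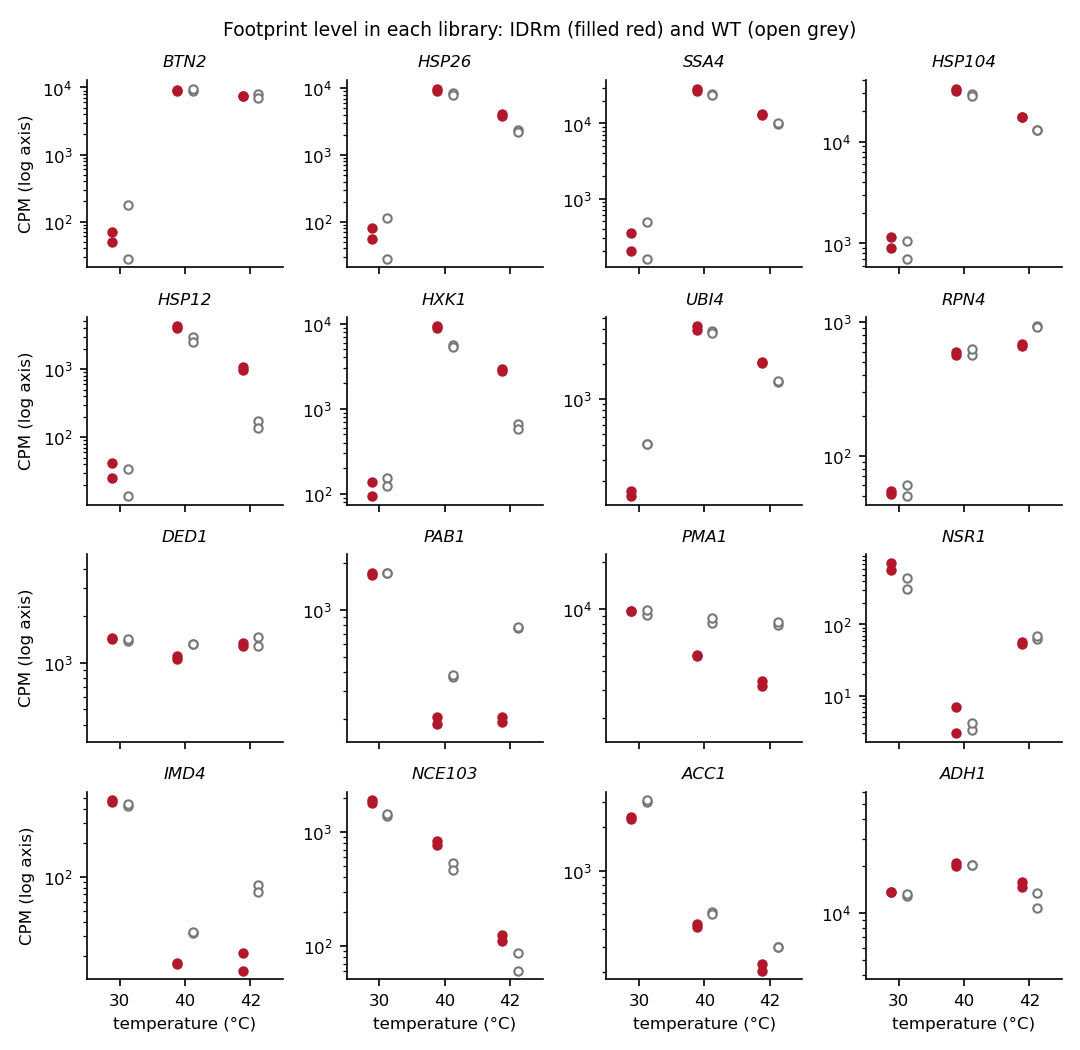
Level of 16 genes in each library (CPM, log axis) at 30, 40 and 42 °C, with IDRm as filled red and WT as open grey points and 2 libraries per group. At 42 °C PAB1 and PMA1 are lower in both IDRm libraries than in both WT libraries, while HSP12, HXK1 and UBI4 are higher.

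General stress genes rose almost as a block. HSP12, a small protein that stabilises membranes, had 25.2 and 42.1 CPM at 30 °C and 1087 and 954 CPM at 42 °C, a change of 4.91 ± 0.36 (adjusted p = 1.68e-05). TMA10, a ribosome-associated stress protein, had 34.0 and 41.1 CPM at 30 °C and 2697 and 2609 CPM at 42 °C, a change of 6.14 ± 0.29. SPI1, a cell wall protein, and CTT1, the cytosolic catalase that breaks down hydrogen peroxide, changed by 5.28 ± 0.25 and 4.71 ± 0.37. In these 4 genes each heated library was above each control library. Of 38 genes on this list 37 rose and 1, ECM4, did not pass the test, with a median of 3.58. Their share of a library went from 0.234% and 0.266% to 2.49% and 2.30%. Trehalose and glycogen genes, which handle storage sugars, rose in 17 of 19 cases and fell in 1, TPS3. TSL1, a subunit of trehalose synthase, had 55.0 and 77.0 CPM at 30 °C and 2922 and 3083 CPM at 42 °C, a change of 5.50 ± 0.34. PGM2, phosphoglucomutase, changed by 5.10 ± 0.36. Of 24 antioxidant genes 18 rose and 4 fell, among the latter both enzymes of glutathione synthesis, GSH1 and GSH2, with GSH1 at −3.15 ± 0.15.

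Among other strongly induced genes, several start from a low level. The minimum mean level of the ranking was met by ROQ1, TOS8, IRC10 and MGA1 only through their values at 42 °C. Their selection therefore required a high level after heat, and the size of their changes rests on low levels at 30 °C. ROQ1, which redirects a ubiquitin ligase to misfolded proteins under stress, had 4.36 and 7.55 CPM at 30 °C and 587 and 609.8 CPM at 42 °C, a change of 6.62 ± 0.19 (adjusted p = 1.5e-12). TOS8, a homeodomain protein, had 1.33 and 2.52 CPM at 30 °C and 212 and 170.3 CPM at 42 °C, a change of 6.59 ± 0.22. IRC10 had 0.379 and 1.18 CPM at 30 °C and 51.6 and 42.5 CPM at 42 °C, a change of 5.84 ± 0.29 from a very low level. MGA1, a protein resembling heat shock factor, had 6.26 and 6.38 CPM at 30 °C and 357 and 369.5 CPM at 42 °C, a change of 5.84 ± 0.27, and ATG41, an autophagy protein, changed by 5.65 ± 0.49. HXK1, a hexokinase that cells make when glucose is short, had 94.1 and 137 CPM at 30 °C and 2926 and 2750 CPM at 42 °C, a change of 4.62 ± 0.17.

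Protein disposal changed in single genes more than as a group. RPN4, the short-lived activator of proteasome genes, had 51.4 and 54.9 CPM at 30 °C and 686 and 658 CPM at 42 °C, a change of 3.66 ± 0.09 (adjusted p = 2.66e-26). The proteasome list, RPN4 included, had 14 higher and 11 lower of 34 and a median of 0.00, and PRE2, a catalytic subunit, changed by 0.89 ± 0.08. UBI4, the stress-inducible polyubiquitin gene, had 147 and 164 CPM at 30 °C and 2021 and 2084 CPM at 42 °C, a change of 3.72 ± 0.08 (adjusted p = 1.62e-27). The median of the proteasome list lay so near 0 that its sign turned with the scaling. RAD23, which ferries ubiquitinated proteins to the proteasome, fell by 1.76 ± 0.10. In the ubiquitin list 9 of 17 genes rose and 7 fell. Transcription factors of stress and growth had 11 higher and 11 lower of 24, beside 36.8% higher and 36.7% lower over all genes. CIN5, a stress regulator of the Yap family, changed by 3.26 ± 0.11, and IFH1, which activates ribosomal protein genes, by −2.50 ± 0.14. GCN4, the activator of amino acid genes, was at −0.10 ± 0.10 and did not pass (adjusted p = 0.337).

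Genes for assembling ribosomes fell almost without exception. NSR1 (YGR159C, chromosome VII, 806412 to 807656), which acts in the nucleolus on precursors of ribosomal RNA, had 727 and 581 CPM at 30 °C and 53.3 and 57.7 CPM at 42 °C, a change of −3.56 ± 0.24 (adjusted p = 4.73e-06). SOF1, a processome subunit of the 40S pathway, had 173 and 142 CPM at 30 °C and 16.2 and 18.7 CPM at 42 °C, a change of −3.17 ± 0.14. NOG2, a GTPase of late 60S assembly, had 318 and 259 CPM at 30 °C and 39.5 and 37.0 CPM at 42 °C, a change of −2.91 ± 0.15. REI1, which frees 60S particles of assembly factors in the cytoplasm, had 104 and 80.4 CPM at 30 °C and 5.03 and 5.53 CPM at 42 °C, a change of −4.12 ± 0.22. ALB1, a factor it helps to remove, had 133 and 106 CPM at 30 °C and 8.30 and 6.49 CPM at 42 °C, a change of −3.997. In these 5 genes both heated libraries were far below both controls. Of 62 genes of 40S biogenesis 60 fell and 2, UTP7 and FAL1, did not pass, with a median of −1.45, and all 68 of 60S biogenesis fell, with a median of −1.36. Their shares of a library went from 1.67% and 1.50% to 0.588% and 0.580% and from 1.60% and 1.40% to 0.586% and 0.561%. RNA polymerases I and III, which make ribosomal and transfer RNA, lost footprints in 17 of 20 genes, with RPA190 and RPO31, their largest subunits, at −2.33 ± 0.10 and −3.33 ± 0.13. DUS1, which makes dihydrouridine in transfer RNA, fell by 3.59 ± 0.17.

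Ribosomal proteins themselves fell far less. Of 138 tested genes 100 were lower and 11 higher, with a median of −0.37. They took 18.9% and 18.7% of the counts at 30 °C and 13.8% and 13.8% at 42 °C. RPS13, a small-subunit protein with a single gene, was at −0.03 ± 0.07 and did not pass (adjusted p = 0.73). RPL24B, a large-subunit protein, had 1070 and 998 CPM at 30 °C and 298 and 275 CPM at 42 °C, a change of −1.85 ± 0.07. RPL4A changed by −2.21 ± 0.09, but shares 82.9% of its 28-base words with its paralog, and many ribosomal protein genes come in such pairs.

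**Figure D3:**
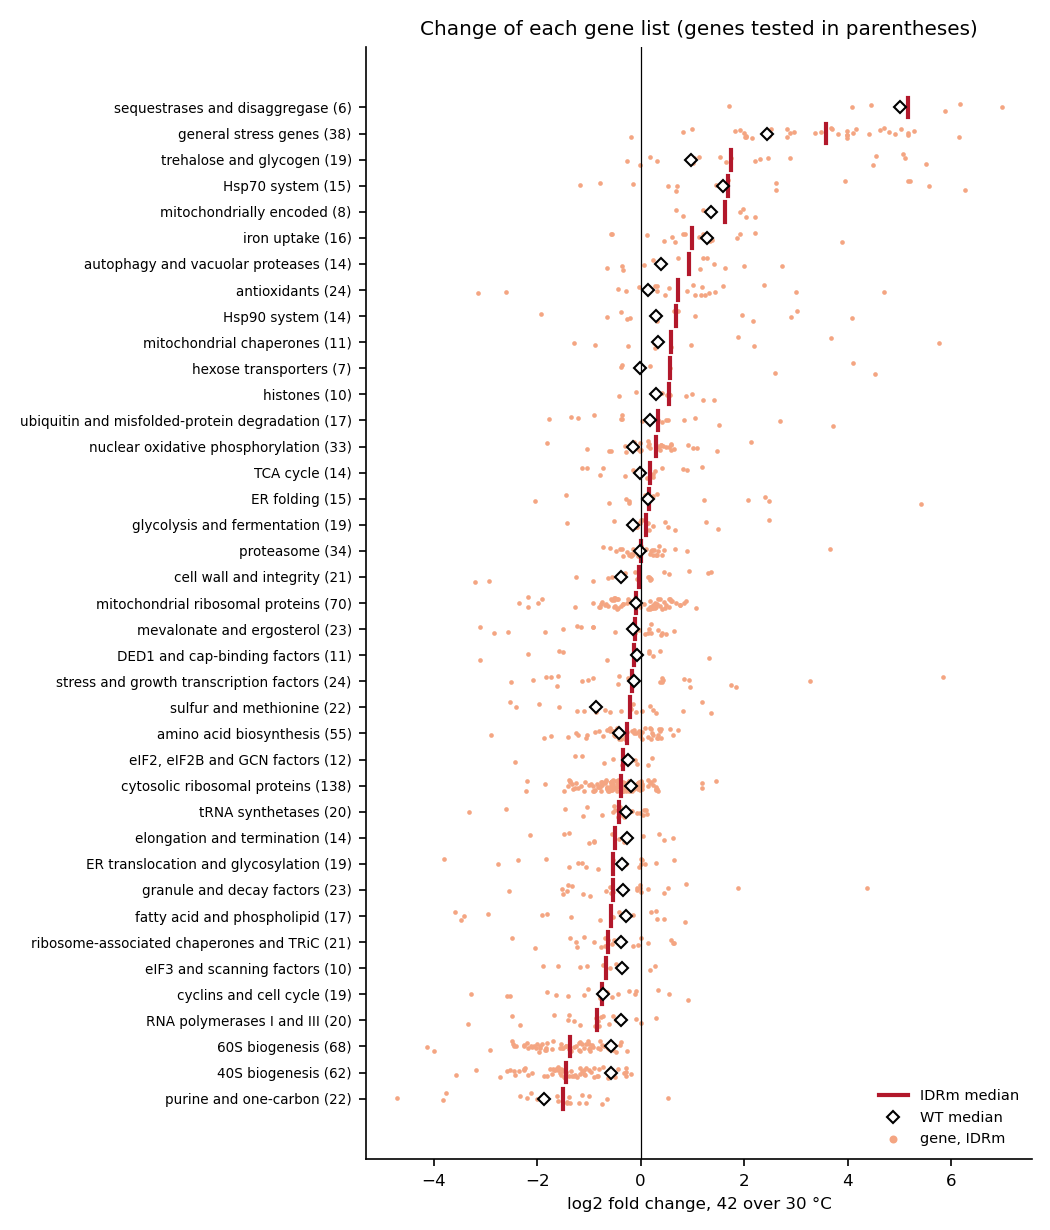
Log2 fold changes of the genes of 39 lists in the IDRm strain (points), with the IDRm median as a red bar and the WT median as an open diamond, ordered by the IDRm median. Sequestrases and general stress genes stand at the top with medians of 5.16 and 3.58, and the bottom is held by purine and ribosome assembly genes.

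Factors of translation mostly fell. PAB1 (YER165W, chromosome V, 510373 to 512106), which binds poly(A) tails and links them to the cap complex, had 1717 and 1663 CPM at 30 °C and 205 and 190.5 CPM at 42 °C, a change of −3.09 ± 0.07 (adjusted p = 1.3e-26). TIF3, the initiation factor eIF4B, had 618 and 555 CPM at 30 °C and 131 and 129.5 CPM at 42 °C, a change of −2.17 ± 0.08, and TIF4631, the scaffold eIF4G, changed by −1.50 ± 0.07. The list of DED1 and cap-binding factors had 3 higher and 5 lower of 11, or 5 higher with the 4 libraries alone. One of the higher genes, DBP1, the close relative of DED1 that can stand in for it when overproduced, was chosen after its values were seen. DBP1 had 8.53 and 8.56 CPM at 30 °C and 19.9 and 23.1 CPM at 42 °C, a change of 1.32 ± 0.19 (adjusted p = 1.66e-07). Of 10 genes of eIF3 and scanning, which bring the small subunit to the start codon, 8 fell and 2 rose, SUI1 and TIF11 (only 1 with DESeq2 size factors), with RPG1 and NIP1, eIF3 subunits, at −1.88 ± 0.07 and −1.59 ± 0.08. GCD7, a subunit of the exchange factor eIF2B, had 103 and 94.5 CPM at 30 °C and 19.0 and 17.8 CPM at 42 °C, a change of −2.42 ± 0.13, in a list with 8 lower and 1 higher of 12. Elongation and termination factors had 10 lower and 2 higher among the 14 tested of 15. SUP35, a release factor, fell by 2.13 ± 0.08 and EFB1, the exchange factor of elongation factor 1A, by 1.48 ± 0.07. TEF1, which encodes elongation factor 1A, did not pass at 0.04 ± 0.08 (adjusted p = 0.692). It shares 95.8% of its 28-base words with other genes, and its sign turned negative with the scaling by DESeq2 size factors. Among 20 tRNA synthetases 14 fell and none rose. ALA1, the synthetase for alanine, had 988 and 942 CPM at 30 °C and 91.8 and 102 CPM at 42 °C, a change of −3.32 ± 0.08, and CDC60, that for leucine, fell by 2.60 ± 0.07. Genes of RNA granules and mRNA decay had 5 higher and 12 lower of 23, with EDC2, an enhancer of decapping, at 4.38 ± 0.14 and XRN1, the main exonuclease of decay, at −2.55 ± 0.09.

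Purine and one-carbon genes had the lowest median of the lists, −1.51, with 21 of 22 lower and 1, IMD2, higher. IMD4 (YML056C, chromosome XIII, 162194 to 164176) had 478 and 461 CPM at 30 °C and 14.9 and 21.1 CPM at 42 °C, a change of −4.71 ± 0.11 (adjusted p = 2.8e-26). ADE17, which closes the purine ring, had 698 and 784 CPM at 30 °C and 55.3 and 49.0 CPM at 42 °C, a change of −3.83 ± 0.09. SHM1, the mitochondrial serine hydroxymethyltransferase, had 413 and 412 CPM at 30 °C and 26.7 and 34.1 CPM at 42 °C, a change of −3.77 ± 0.10. Amino acid biosynthesis was mixed, with 15 higher and 29 lower of 55 and a median of −0.26. ILV5, of branched-chain synthesis, changed by −1.74 ± 0.08. Sulfur and methionine genes had 3 higher and 9 lower of 22, with MET6, methionine synthase, at −2.40 ± 0.08 and SAM1, S-adenosylmethionine synthetase, at −2.52 ± 0.08. NCE103, carbonic anhydrase, had 1898 and 1783 CPM at 30 °C and 125 and 110.3 CPM at 42 °C, a change of −3.96 ± 0.13 (adjusted p = 1.21e-12). PHO5, a secreted acid phosphatase, fell by 4.21 ± 0.12 and shares 21.5% of its 28-base words with other genes, and PSE1, a nuclear import receptor, fell by 3.85 ± 0.12.

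Several genes of lipid synthesis and of the secretory route fell to a small part of their level. ACC1, acetyl-CoA carboxylase, which starts fatty acid synthesis, had 2355 and 2262 CPM at 30 °C and 205 and 226 CPM at 42 °C, a change of −3.42 ± 0.07 (adjusted p = 1.9e-27). FAS2, a fatty acid synthase subunit, had 3251 and 3137 CPM at 30 °C and 392 and 434 CPM at 42 °C, a change of −2.95 ± 0.07, and INO1, which makes inositol phosphate, fell by 3.59 ± 0.22. The fatty acid and phospholipid list had 11 lower and 5 higher of 17. In the ergosterol pathway 10 of 23 genes fell and 7 rose, with ERG2, sterol isomerase, at −3.10 ± 0.10 and ERG11, lanosterol demethylase, at −1.84 ± 0.08. OST1, a subunit of the enzyme that attaches sugar chains to proteins, had 219.8 and 224 CPM at 30 °C and 17.3 and 14.7 CPM at 42 °C, a change of −3.79 ± 0.12, and STT3, its catalytic subunit, fell by 1.83 ± 0.09. Translocation and glycosylation genes had 12 lower and 2 higher of 19.

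At the cell surface, PMA1 (YGL008C, chromosome VII, 479910 to 482666), the proton pump of the plasma membrane, had 9749 and 9736 CPM at 30 °C and 3191 and 3433 CPM at 42 °C, a change of −1.56 ± 0.07 (adjusted p = 1.62e-19). HSP30, a membrane heat shock protein that restrains this pump, had 57.6 and 87.6 CPM at 30 °C and 6304 and 6540 CPM at 42 °C, a change of 6.46 ± 0.87 (adjusted p = 0.000491). FKS1, the main glucan synthase of the wall, had 1857 and 1852 CPM at 30 °C and 210.2 and 193 CPM at 42 °C, a change of −3.20 ± 0.08, while CHS1, a chitin synthase of wall repair, changed by 1.30 ± 0.08. The wall and integrity list had 6 higher and 8 lower of 21. Of 7 hexose transporters 4 rose and 2 fell. HXT2, a high-affinity transporter, changed by 0.57 ± 0.09, and HXT7 changed by 2.59 ± 0.14 but shares 96.0% of its 28-base words with other genes.

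Energy genes were split. Glycolysis and fermentation genes took 13.8% and 14.1% of the counts at 30 °C and 13.5% and 14.0% at 42 °C, with 6 higher, 2 lower and 11 not called of 19, or 10 higher with the 4 libraries alone. PGK1, phosphoglycerate kinase, rose by 0.66 ± 0.07, CDC19, the main pyruvate kinase, fell by 1.43 ± 0.07, and ADH1, alcohol dehydrogenase, was at 0.15 ± 0.08 (adjusted p = 0.0691), which passed with library size as the scale and with the 4 libraries alone. Nuclear genes of oxidative phosphorylation had 18 higher and 6 lower of 33, with QCR8, of complex III, at 2.14 ± 0.08 and ATP1, of ATP synthase, at −1.82 ± 0.08. All 8 genes of mitochondrial DNA were higher, with COX2, of cytochrome oxidase, at 16.3 and 16.3 CPM at 30 °C and 69.3 and 58.4 CPM at 42 °C. OLI1, of ATP synthase, rose by 0.81 ± 0.24 (adjusted p = 0.0118), a call that ended without IDRm 30 °C replicate 1, IDRm 30 °C replicate 2 or IDRm 42 °C replicate 1 (adjusted p = 0.0572, 0.0679 and 0.0812). Together these 8 genes took a mean of 0.00995% of the counts at 30 °C and 0.0247% at 42 °C.

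Of 10 histone genes 8 rose and 1, HTA2, fell, with HTA1, histone H2A, at 1.41 ± 0.07. Cyclins and other cell cycle genes had 12 lower and 2 higher of 19, with CLB2, a mitotic cyclin, at −2.52 ± 0.19 and SWI5, a factor of the end of mitosis, at −3.27 ± 0.19. Autophagy and vacuolar protease genes had 8 higher and 2 lower of 14, with ATG8, which coats the autophagosome, at 1.99 ± 0.14. Iron genes had 11 higher and 2 lower of 16, with TIS11, which degrades messages of iron-using proteins, at 3.89 ± 0.19 and SIT1, a siderophore transporter, at 1.38 ± 0.16. Of 70 proteins of the mitochondrial ribosome 22 were higher and 28 lower, beside 36.8% higher and 36.7% lower over all genes. Change also went with gene length: the 1399 tested genes with the shortest coding sequences, 78 to 744 bases, had a median of 0.30, and the 1395 longest, 1923 to 14733 bases, a median of −0.32. The level at 30 °C went with change as well, over a wider range of medians. The 1399 genes with the lowest level there, 0 to 14.75 CPM, had a median of 0.88, with 62.1% higher and 5.86% lower. The 1398 with the highest, 100 to 30387 CPM, had a median of −0.43, with 20.8% higher and 62.2% lower. The change contains the 30 °C level, so this is partly built in. The part of length or level in the results above was not tested.

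The WT strain, with the same tag on Ded1 without the variant, was given the same heat in separate libraries, which allows a test of whether the change from 30 to 42 °C differs between the strains. Gene by gene the changes ran together, with Pearson's r = 0.91 and Spearman's rho = 0.892 across 5719 genes, which are not independent replicates. Their spread was wider in IDRm, with a median absolute change of 0.66 against 0.46. In WT 836 genes were at least 2-fold higher (14.6%) and 495 at least 2-fold lower (8.66%). Of the higher genes 734 were shared, which is 71.1% of the IDRm genes and 87.8% of the WT genes, and of the lower genes 424, which is 47.1% and 85.7%. The difference itself passed in 650 genes where the change was higher in IDRm (11.4%) and in 919 where it was lower (16.1%). Of the 919, 839 were genes that fell in IDRm, and of the 650, 489 were genes that rose. The difference contains the IDRm change itself, so this agreement in direction is partly built in. The count of 650 was 415 without IDRm 30 °C replicate 1 and 316 with the Wald test of DESeq2, beside 704 and 730 for the 919. With library size alone as the scale the split was 455 higher and 1098 lower, and with DESeq2 size factors 496 and 1044.

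**Figure D4:**
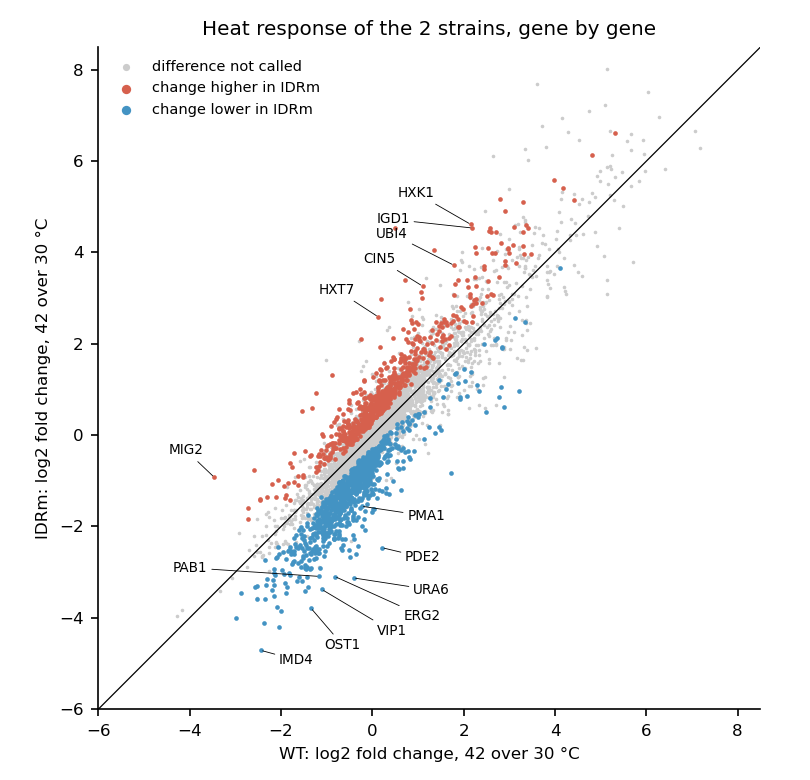
Log2 fold change from 30 to 42 °C in IDRm (vertical) against WT (horizontal) for each tested gene, with the line of equal change and the genes whose difference passed the test in colour. The 919 genes with a lower change in IDRm lie below the line, mostly among genes that fell, and the 650 with a higher change lie above it.

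Ribosome assembly genes were on the lower side: the difference passed in 53 of 62 genes of 40S and 61 of 68 of 60S biogenesis, each time with the lower change in IDRm. Their medians were −1.45 and −1.36 in IDRm and −0.56 and −0.58 in WT. The strains already differed at 30 °C. There the 40S genes took 1.67% and 1.50% of the counts in IDRm and 1.24% and 1.38% in WT. The 60S genes took 1.60% and 1.40% in IDRm and 1.09% and 1.25% in WT. At 42 °C the WT shares were 0.882% and 0.821% for 40S and 0.828% and 0.769% for 60S, above those of IDRm. The difference therefore holds a higher start as well as a lower end in IDRm. Polymerases I and III followed with 14 of 20, elongation and termination factors with 9 of 14, eIF3 and scanning factors with 7 of 10, and ribosomal proteins with 52 lower and 4 higher of 138. PAB1 changed by −3.09 ± 0.07 in IDRm and −1.17 ± 0.07 in WT, where it had 1728 and 1733 CPM at 30 °C and 768 and 775 CPM at 42 °C, a difference of −1.93 ± 0.09 (adjusted p = 6.32e-16). PMA1 changed by −1.56 ± 0.07 in IDRm and −0.24 ± 0.07 in WT, a difference of −1.32 ± 0.10 (adjusted p = 2.07e-12). GCD7, TIF3 and ALA1 differed by −2.10 ± 0.16, −1.43 ± 0.11 and −1.91 ± 0.10. RPL4A differed by −1.49 ± 0.12, FKS1 by −1.65 ± 0.11 and ERG11 by −1.65 ± 0.10.

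With genes under a mean of 20 CPM and those without a standard name left out, the 6 lowest differences were in URA6, PDE2, OST1, ERG2, VIP1 and IMD4. URA6, uridylate kinase, had 80.0 and 74.5 CPM at 30 °C and 8.74 and 8.89 CPM at 42 °C in IDRm, and 104 and 106 CPM at 30 °C and 72.3 and 86.8 CPM at 42 °C in WT, a difference of −2.72 ± 0.20 (adjusted p = 2.06e-12). PDE2, the high-affinity phosphodiesterase that breaks down cyclic AMP, had 63.1 and 52.4 CPM at 30 °C and 11.6 and 9.13 CPM at 42 °C in IDRm, and 51.7 and 51.9 CPM at 30 °C and 62.2 and 57.4 CPM at 42 °C in WT, a difference of −2.68 ± 0.19 (adjusted p = 1.86e-12). In both genes the heated IDRm libraries lay below the IDRm libraries at 30 °C and below the WT libraries at either temperature. OST1 differed by −2.44 ± 0.16, ERG2 by −2.27 ± 0.14, VIP1, an inositol pyrophosphate kinase, by −2.27 ± 0.15 and IMD4 by −2.27 ± 0.15.

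Under the same 2 limits, the 6 highest differences were in MIG2, HXT7, HXK1, IGD1, CIN5 and CCW22. Larger ones lay outside these limits. A hexose transporter below the floor had a called difference of 4.03, and over all tested genes the differences reached 4.08. MIG2, a repressor of genes that glucose silences, had 51.6 and 58.2 CPM at 30 °C and 25.8 and 32.4 CPM at 42 °C in IDRm, and 61.9 and 54.9 CPM at 30 °C and 5.62 and 4.90 CPM at 42 °C in WT, a difference of 2.54 ± 0.22 (adjusted p = 1.71e-10). MIG2 fell in both strains, so the positive difference is a smaller fall. HXK1 had 152 and 124 CPM at 30 °C and 659.8 and 581 CPM at 42 °C in WT, a difference of 2.46 ± 0.22 (adjusted p = 4.28e-05). IGD1, an inhibitor of glycogen debranching, differed by 2.35 ± 0.31, CIN5 by 2.17 ± 0.18, CCW22 by 2.08 ± 0.15 and HXT7, with its shared sequence, by 2.47 ± 0.28. UBI4 differed by 1.94 ± 0.10 (adjusted p = 1.68e-15), from 412 and 412 CPM in WT at 30 °C, above both IDRm libraries at that temperature, to 1415 and 1423 CPM at 42 °C. Words repeated within this polyubiquitin gene were not measured, so its counts may be uncertain. HSP12 differed by 2.005 (adjusted p = 0.0419), a call that ended under 8 of the 14 other settings, with adjusted p from 0.0579 to 0.115, among them those without IDRm 30 °C replicate 1, either IDRm library or either WT library at 42 °C.

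Of the 38 general stress genes 19 had a higher change in IDRm and none a lower one, with medians of 3.58 and 2.44, and of the trehalose and glycogen genes 11 of 19 and none. At 42 °C general stress genes took 2.49% and 2.30% of the counts in IDRm and 1.17% and 1.06% in WT. Nuclear oxidative phosphorylation had 15 higher and 2 lower of 33, antioxidants 13 and 2 of 24, sulfur genes 12 and 2 of 22, and amino acid biosynthesis 27 and 5 of 55. For amino acid and sulfur genes the medians were −0.26 and −0.20 in IDRm and −0.42 and −0.86 in WT, so both medians were lower in WT. DBP1, with 8.63 and 7.57 CPM at 30 °C and 7.83 and 11.9 CPM at 42 °C in WT, differed by 1.13 ± 0.28 (adjusted p = 0.00289). That call was lost without WT 30 °C replicate 1 or WT 42 °C replicate 1 (adjusted p = 0.0545 and 0.0505). HXT2 differed by 1.11 ± 0.12. Iron genes had 6 of 16 with a lower change in IDRm and none higher. Of the 15 Hsp70 genes 4 had a higher change in IDRm and none a lower one, and HSP104, with 705 and 1069 CPM at 30 °C and 12907 and 12890 CPM at 42 °C in WT, differed by 0.22 ± 0.28 (adjusted p = 0.643). Without WT 30 °C replicate 1 that difference was 0.48 (adjusted p = 0.00789), and without WT 30 °C replicate 2 it was −0.11 (adjusted p = 0.576), with the adjusted p at 0.32 or above under the other settings. DED1 differed by −0.10 ± 0.10 (adjusted p = 0.481), and RPN4 by −0.45 ± 0.12 (adjusted p = 0.00675), which no longer passed when WT 30 °C replicate 1 was left out (adjusted p = 0.155, against at most 0.0496 under each other setting).

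At 40 °C the same strain stood farther from 30 °C than at 42 °C in many of these groups. The comparison of 42 with 40 °C shares the 42 °C libraries with the one above, and 40 with 30 °C shares the controls, so the values are only set side by side. Against 40 °C, the edgeR test called 1564 genes higher at 42 °C (27.3%) and 1546 lower (27%), or 2228 and 974 with library size alone as the scale, which moved the median gene from 0.01 to 0.23. Ribosomal proteins took 5.75% and 5.59% of the counts at 40 °C, below both other temperatures, and 135 of 138 were higher at 42 °C than at 40 °C. Of the ribosome assembly genes 59 of 62 and 66 of 68 were higher at 42 °C than at 40 °C, with shares of 0.197% and 0.182% and 0.176% and 0.162% at 40 °C. General stress genes took 5.03% and 5.17% at 40 °C, and 34 of 38 were lower at 42 °C than at 40 °C. HSP12 had 3995 and 4326 CPM at 40 °C, a change from there to 42 °C of −2.03 ± 0.28 (adjusted p = 0.00095), and NSR1 had 7.09 and 2.99 CPM, a change of 3.45 ± 0.46 (adjusted p = 0.000491). The extreme at 40 °C was not particular to IDRm. In WT the ribosomal protein share was also lowest there (7.1% and 7.5%), below the 16.9% and 17.1% reached at 42 °C. WT general stress genes peaked at the same temperature, with shares of 3.7% and 3.4%, which were 1.2% and 1.1% after 42 °C. For WT only these shares are compared here.

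**Figure D5:**
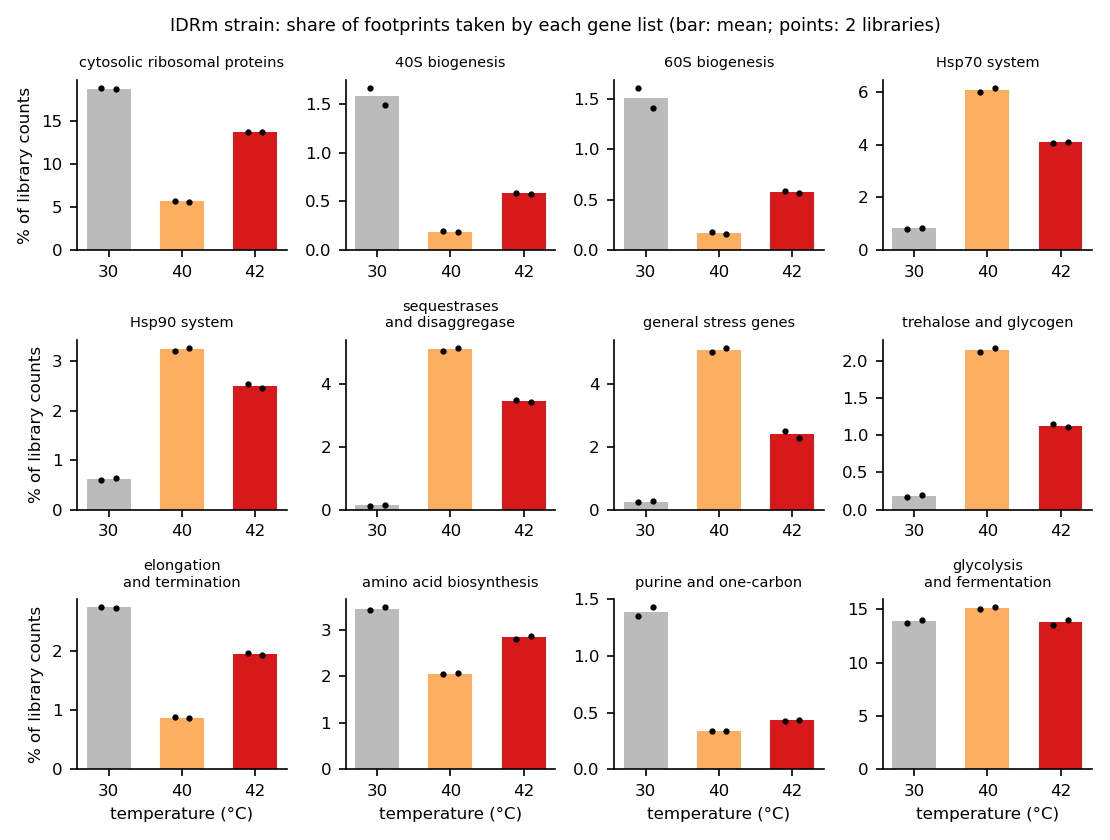
Share of all counts of a library (%) taken by 12 gene lists in the IDRm strain at 30, 40 and 42 °C, with bars for the mean and points for the 2 libraries. Ribosomal proteins and assembly genes are lowest at 40 °C and stress genes and chaperones highest there, while glycolysis stays between 13.5% and 15.2% in all 6 libraries.

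Other genes lay farther from their 30 °C level at 42 °C than at 40 °C, and some of them are given here. NCE103 had 769.9 and 840.3 CPM at 40 °C, between its values at 30 and 42 °C, and changed by −2.77 ± 0.12 from 40 to 42 °C (adjusted p = 1.3e-10). PMA1 had 5003 and 5057 CPM at 40 °C and changed by −0.60 ± 0.07 from there, and ACC1 by −0.96 ± 0.07 from 428 and 409.6 CPM. URA6 and PDE2 changed by −1.39 ± 0.20 and −1.49 ± 0.18 from 40 to 42 °C. IRC10 had 22.5 and 14.4 CPM at 40 °C and rose by 1.35 ± 0.17 from there (adjusted p = 5.12e-08). PAB1, at 203 and 185 CPM, and IMD4, at 17.1 and 17.2 CPM, had their low level at 40 °C already, and their changes from 40 to 42 °C of 0.03 ± 0.07 and 0.06 ± 0.18 did not pass (adjusted p = 0.801 and 0.804).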

How the data were processed

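Footprint counts per gene were deposited by the authors as 1 table of raw counts for the 12 libraries. Per the submitters' processing notes, the tools were STAR 2.5.2b, Bowtie2 2.2.6, cutadapt 1.17 and bcl2fastq 2.17.1.14, and the build was R64. How reads were assigned to genes, by strand or with several matches, is not given in the sources used here. Counts of genes with shared or overlapping sequence are therefore uncertain, and 380 genes share at least 20% of their 28-base words. Only words found in another gene were counted as shared, and repeats within a gene were not measured.

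From the counts, edgeR 4.0.16 in R 4.3.3 kept genes with at least 10 counts (scaled to library size) in enough libraries and 15 in all, scaled by TMM, and fitted the robust quasi-likelihood model with 1 mean for each of the 6 groups over 12 libraries (6 residual degrees of freedom). P-values were adjusted by Benjamini-Hochberg over 5719 genes. The threshold for a call was 0.05. Standard errors are approximate, from the change and its F value. P-values measure the spread between libraries of duplicate pre-cultures.

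The labels give duplicates the same numbers in each group. Deviations from the group mean correlated between equal numbers at −0.0117 to 0.0136 within IDRm, at −0.0879 to 0.154 over all pairs of groups and at 0.154 between IDRm and WT at 42 °C, and the numbers were not taken as pairs. Alternatives were other scalings, no filter, DESeq2 1.42.0 with its Wald test, a fit to just the groups compared, a replicate block and leaving out each library. Named genes were the 12 highest and lowest changes at a mean of at least 20 CPM, the 6 highest and lowest differences between strains, up to 4 changed members and the member with the highest level that was not called of each of 42 gene lists, and 12 genes of fixed interest, of which some are not printed. The highest and lowest changes and differences were taken among genes with a standard name, the differences also at a mean of at least 20 CPM. Such a mean lets in genes that are high at 1 temperature only. DBP1 and the few members named for going against their list were chosen after their values were seen. The genes, lists and tests were chosen with earlier results of these data known. Positions and upstream sequence are from RefSeq's R64, in which 6014 of the 6697 gene names were found.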

Additional observations from a re-analysis of the deposited data

Results flagged for a closer look

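The change from 30 to 42 °C was tested between the strains as a difference (IDRm minus WT, log2, 8 libraries), and it passed in 650 genes with the higher and 919 with the lower change in IDRm. Values below are these differences, each called by edgeR at an adjusted p of at most 0.05.

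Among genes of translation, the differences were −1.93 for PAB1, −2.10 for GCD7, −1.43 for TIF3, −1.91 for ALA1 and −1.49 for RPL4A, whose sequence is shared with its paralog. In nucleotide metabolism and signalling, URA6 differed by −2.72, IMD4 by −2.27, PDE2 by −2.68 and VIP1 by −2.27. In membrane, sterol, glycosylation and wall genes, PMA1 differed by −1.32, ERG2 by −2.27, ERG11 by −1.65, OST1 by −2.44 and FKS1 by −1.65. RPN4 differed by −0.45.

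On the other side stood the sugar genes, with HXK1 at 2.46, HXT2 at 1.11, IGD1 at 2.35 and HXT7, whose sequence is shared with other genes, at 2.47. The factors MIG2 and CIN5 differed by 2.54 and 2.17. HSP12 differed by 2.005, UBI4 by 1.94, CCW22 by 2.08 and DBP1, the relative of DED1, by 1.13. The calls of HSP12, DBP1 and RPN4 were each lost under some other settings, as given above.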

How the results depend on the processing

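Counts of called genes stayed close to the reported ones, within a factor of 1.5, in 67 alternatives and left that range in 5. The 5 were the call of at least 2-fold between 42 and 30 °C (1032 higher and 900 lower), the difference between strains with the Wald test of DESeq2 (316 higher) and without IDRm 30 °C replicate 1 (415 higher), and 42 against 40 °C with library size alone as the scale (974 lower). Leaving out each library gave 415 to 738 genes with a higher and 690 to 935 with a lower change in IDRm. For 42 against 30 °C it gave 1809 to 1870 higher and 1941 to 1984 lower genes. Of 102 genes given values here as changed between 42 and 30 °C, 101 kept their call and direction under all 10 alternatives, and OLI1 lost it in 3.

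TEF1, which was not called, changed sign with DESeq2 size factors and with the Wald test (−0.006 in both), and over the left-out libraries it ran from −0.077 to 0.126. The difference between strains in HSP104 ran from −0.113 to 0.483 over the left-out libraries. The cause was not tested. Of the medians and counts of the gene lists, 137 moved beyond their spread or by a factor above 1.5 and 1093 did not. With a replicate block 2108 genes were higher and 2103 lower, 4180 of them called in both fits, and the difference between strains passed in 681 and 944 genes. The block ended the HSP12 difference (adjusted p = 0.101). The labels do not say that equal numbers mark one pre-culture. Depth limits genes near the filter, and shares cannot show a change in total translation.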
